A study of Mus musculus with 5 samples.

Results

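The genes described here encode lysosomal enzymes, lysosomal membrane proteins and the proton pump that acidifies the organelle, read across 5 populations of mouse bone marrow. They are a written list of 33 genes joined by every gene whose symbol begins with Atp6v, 21 in all. For each gene the probe set with exactly 1 gene symbol was taken, and where there were several the one with the highest mean over the arrays. All 33 written genes had such a probe set, so that 54 of 19938 named genes are members. The rule names genes by function and symbol and uses no measured value, but the list was drawn up with earlier results of these data known.

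The study profiled cells of wild-type C57Bl/6 mice, sorted by flow cytometry, used without treatment, and hybridised on 1 expression array per population. All populations were lineage-negative and CD115-positive. Cells positive for both CD117 and CD135 were taken as monocyte-dendritic cell progenitors (MDP), cells with CD135 but only intermediate CD117 as common dendritic cell progenitors (CDP), and cells with CD117 but no CD135 as common monocyte progenitors (cMoP). Classical monocytes were Ly6C-positive and TremL4-negative, and nonclassical monocytes were Ly6C-negative and TremL4-positive. The labels give no number of animals or pooling for any population. There are no replicates, so no value below has a replicate error, and no test, p-value or standard deviation was computed.

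A lysosome is an acidic, membrane-bound compartment in which hydrolases break down proteins, glycans and lipids taken up from outside the cell or delivered by autophagy. The V-ATPase pumps protons into it. Its V1 sector, on the cytosolic face, hydrolyses ATP, and its V0 sector, in the membrane, carries the protons. Transcription factors of the MiT family, among them TFEB and TFEC, bind E-box motifs, and TFEB is known to bind them at the start of many lysosomal genes. Monocytes and the macrophages they give rise to are phagocytes and depend on this compartment to digest what they engulf.

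The array measures transcript level, and differences below subtract the deposited log2 value of the second-named population, so that 1 log2 unit is 2-fold. To count as higher or lower, a gene had to differ by at least 1 log2 unit and to reach, on the brighter array, a floor of 6.27, the median of all named genes' values. Levels of different genes were not compared, since probe sets differ in brightness. In bulk samples such as these, fewer cells of a type and less RNA per cell cannot be told apart.

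The sort genes followed the gates, with Kit between 8.16 and 10.11 on the progenitor arrays and at most 5.79 on the monocyte arrays, and Treml4 at 11.78 in nonclassical monocytes and at most 6.18 elsewhere. Ly6c1 and Ly6c2 were not used here. Of 14 macrophage markers, a cell type rich in lysosomes, 2, 2, 1, 2 and 1 lay at or above the floor on the arrays of MDP, CDP, cMoP, classical and nonclassical monocytes. C1qa, C1qb and C1qc, which encode complement C1q, lay between 5.02 and 5.74 on all arrays. Adgre1, an adhesion receptor gene used to mark macrophages, was above the floor on all arrays, with 11.25 in nonclassical and 9.65 in classical monocytes. The others above it were Cd163 in MDP and CDP and Axl in classical monocytes. The mean log2 value of the list lay between 5.21 and 5.66, and its part in the values below was not tested. Many values of the deposited table are exactly tied between arrays, which touched 10 of the 54 members and 16564 of 35556 probe sets.

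E-box motifs stood near the start of many members, and the stretches that hold them are shown here because they are the sequence feature described for TFEB at lysosomal genes. Windows of 300 bases, running from 250 bases before to 50 bases after a listed start, were taken from RefSeq (build GRCm38.p6) and matched 45 of the 54 members. The motif TCACGTG, on either strand, stood in the windows of 12 of these 45 members (26.7%). It stood in those of 5.35% of the 15614 named genes with a window, and in 3.77% of all 32851 windows. The shorter CACGTG, which every TCACGTG contains, stood in 13 of 45 members (28.9%) and in 9.50% of the named genes. An ETS-type motif, GAGGAAG, stood in 7 of 45 members (15.6%) and in 15.1% of the named genes. A match describes letters in a window and does not show that a factor binds there. The 12 stretches follow, each 5′ to 3′ on the strand of its gene, with the motif in capitals (CACGTGA is the motif on the opposite strand, and TCACGTGA holds it on both).
Lamp1 (chr8:13159084-13159160, plus strand): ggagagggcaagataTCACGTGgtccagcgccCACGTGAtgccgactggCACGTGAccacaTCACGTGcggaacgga
Mcoln1 (chr8:3500432-3500495, plus strand): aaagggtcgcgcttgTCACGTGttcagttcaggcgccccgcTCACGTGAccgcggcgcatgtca
Gla (chrX:134601178-134601248, minus strand): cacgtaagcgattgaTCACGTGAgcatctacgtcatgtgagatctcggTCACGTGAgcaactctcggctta
Gaa (chr11:119267807-119267843, plus strand): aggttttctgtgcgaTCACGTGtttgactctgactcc
Glb1 (chr9:114401014-114401050, plus strand): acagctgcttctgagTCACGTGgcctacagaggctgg
Naglu (chr11:101070005-101070041, plus strand): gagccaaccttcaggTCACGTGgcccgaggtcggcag
Sgsh (chr11:119355518-119355554, minus strand): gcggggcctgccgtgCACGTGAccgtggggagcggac
Plbd1 (chr6:136661844-136661873, minus strand): gggcgaaggttggttcccaaggcCACGTGA
Atp6v0b (chr4:117887330-117887381, minus strand): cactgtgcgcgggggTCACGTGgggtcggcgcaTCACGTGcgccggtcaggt
Atp6v0d1 (chr8:105566050-105566079, minus strand): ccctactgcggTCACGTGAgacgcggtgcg
Atp6v0e (chr17:26676387-26676416, plus strand): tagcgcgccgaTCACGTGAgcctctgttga
Atp6v1a (chr16:44139369-44139406, minus strand): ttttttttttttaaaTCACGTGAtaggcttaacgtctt
Lamp1 held 4 sites, the first starting at position -62 and the last at -16 from the listed start. Gla, Mcoln1 and Atp6v0b held 2 sites each and the other 8 genes 1 each, counting overlapping matches of both strands as 1 site. The windows of Tfeb and Tfec held no TCACGTG.

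Across the 5 arrays most of the members were at their highest in a monocyte. Of the 49 members at or above the floor on some array, 22 were highest in classical monocytes and 15 in nonclassical monocytes, against 17.8% and 25.4% of all 11058 genes so placed. Another 10 were highest in cMoP (23.9% of all genes), 1 in MDP (18.1%) and 0 in CDP (12.7%). The 1 highest in MDP was Mcoln2, which encodes the TRPML2 channel and whose values lay close to the floor, from 5.74 in nonclassical monocytes to 6.47 in MDP. Atp6v0e2 held the same value, 6.43, on all arrays and had no highest one.

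Along the monocyte path, 32 of the 49 members stood in ascending order, with MDP below cMoP and cMoP below the classical monocyte, as did 18.2% of all genes. The reverse order was held by 0 of the 49 members and 18.4% of all genes. Some of these steps were very small. With each step at 0.2 log2 units or more, 20 of the 49 members were in the ascending order, against 8.16% of all genes, and 0 in the descending one, against 6.35%. The 32 comprised 12 of 16 proton pump genes at the floor, 6 of 8 membrane proteins and channels, 6 of 9 lipid enzymes and activators, 5 of 12 glycosidases and sulfatases, both other soluble proteins (Tpp1 and Grn) and Tfeb. Among the pump genes, Atp6v0a2 ascended only on the probe set used. Its other one had 7.82 in MDP, 7.92 in cMoP and 7.87 in classical monocytes. Conversely Arsb, not among the 32, ascended on its other probe set, with 8.40, 9.71 and 9.77. Of the 12 members with a TCACGTG match 8 were in the ascending order, and of the 29 at the floor with a window and no match 18 were.

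**Figure D1:**
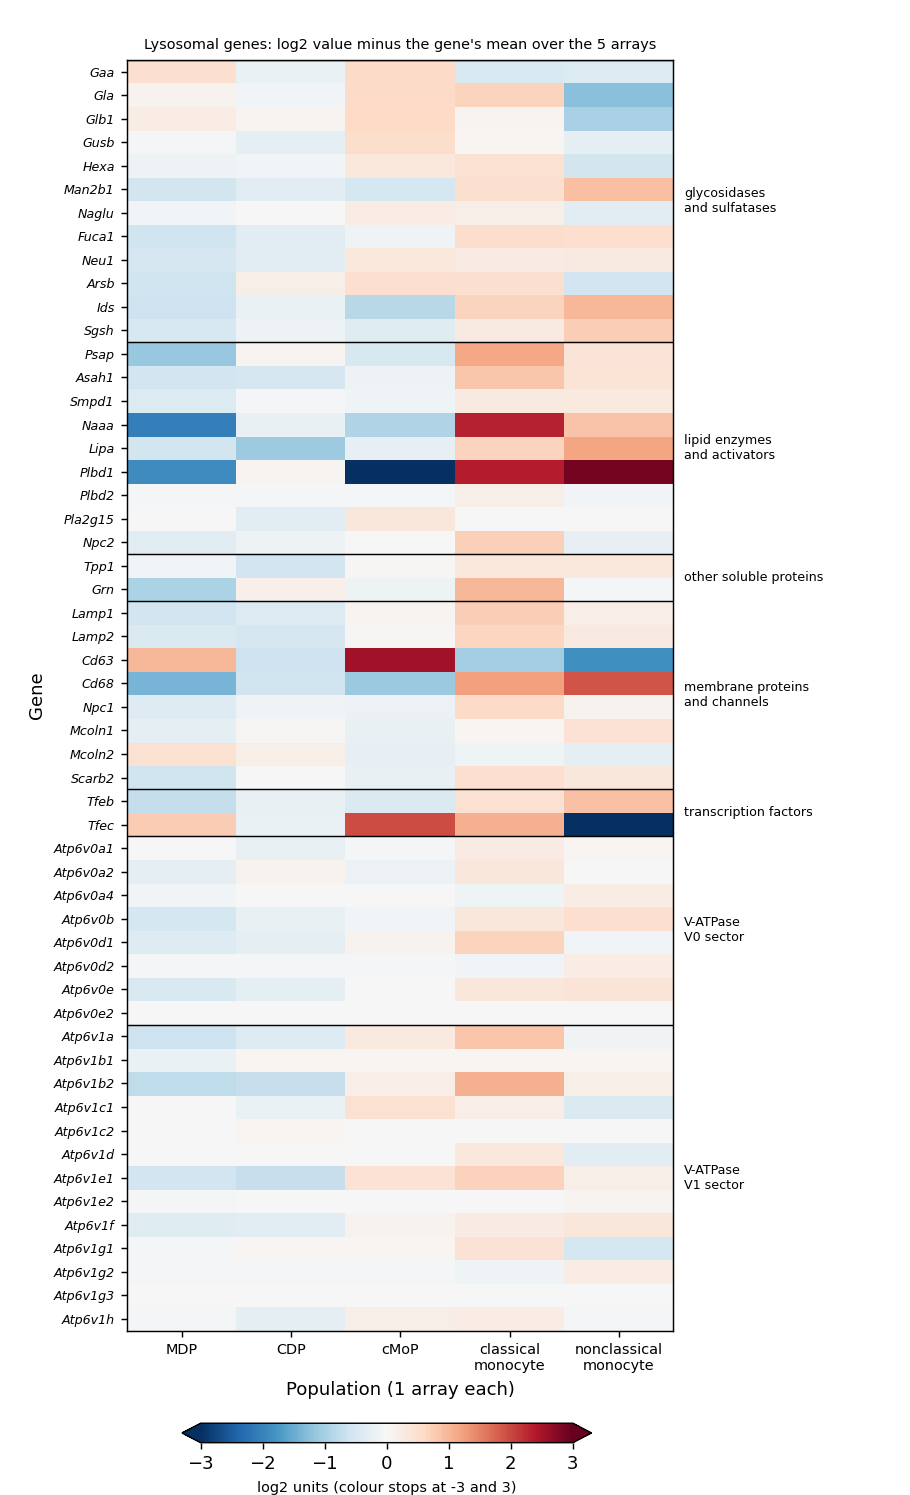
Colour shows each gene's log2 value minus its own mean over the 5 arrays, for 54 genes grouped by role (rows) and 5 populations with 1 array each (columns). The classical monocyte column is red for most rows, where 22 members have their highest value, and the single dark cells in the nonclassical column mark Plbd1 (high) and Tfec (low).

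Members that separated monocytes from progenitors were mostly higher in monocytes. In 23 of the 49 members both monocyte arrays lay above all 3 progenitor arrays (18% of all genes), and in 2, Gaa and Cd63, both lay below (21.3%). The gap was 1 log2 unit or more for Plbd1, Naaa and Cd68 (2.38% of all genes) and for 0 members in the other direction (0.787%). It was 0.5 log2 units or more for 9 members, adding Man2b1, Fuca1, Ids, Asah1, Lipa and Tfeb, against 5.54% of all genes, and for 0 members in the other direction (3.85%). That smaller threshold was chosen after the values were seen.

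Among the enzymes of lipid breakdown and their helpers, 2 genes moved over a far wider range than the rest. Plbd1, which encodes a phospholipase B-like lysosomal protein, had values of 7.36 in MDP, 9.33 in CDP, 5.87 in cMoP, 11.61 in classical monocytes and 12.12 in nonclassical monocytes. It was high in both monocytes, intermediate in the dendritic progenitor and under the floor in the monocyte progenitor alone. Naaa, the acid amidase that hydrolyses fatty acid ethanolamides such as palmitoylethanolamide, had values of 6.40 in MDP, 8.22 in CDP, 7.54 in cMoP, 10.76 in classical monocytes and 9.30 in nonclassical monocytes. MDP stood just above the floor and the classical monocyte was highest. Between the committed progenitors, Plbd1 was at least 8.35-fold lower in cMoP than in CDP, while Naaa differed by -0.68.

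Psap, the precursor of the saposins that present sphingolipids to their hydrolases, ran at 10.36 in MDP, 11.58 in CDP, 11.02 in cMoP, 12.67 in classical monocytes and 11.88 in nonclassical monocytes. Lipa, the acid lipase that frees cholesterol from its esters, had 9.0, 8.46 and 9.30 in MDP, CDP and cMoP, then 10.21 in classical and 10.73 in nonclassical monocytes. Psap thus peaked in the classical and Lipa in the nonclassical monocyte. Asah1, acid ceramidase, had 8.69 in MDP, 8.77 in CDP, 9.12 in cMoP, 10.10 in classical monocytes and 9.67 in nonclassical monocytes, so both monocytes lay above all progenitors. Npc2, which carries cholesterol in the lysosomal lumen, spanned 11.03 in MDP to 12.08 in classical monocytes, and its membrane partner Npc1 8.11 in MDP to 9.08 in classical monocytes. Smpd1, acid sphingomyelinase, Pla2g15, the lysosomal phospholipase A2, and Plbd2, the close relative of Plbd1, stayed within 0.69, 0.65 and 0.26 log2 units over all arrays. In Plbd2 the 5 values lay between 7.77 and 8.03.

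The glycosidases and sulfatases, which strip sugars and sulfate groups from glycoproteins, glycolipids and glycosaminoglycans, did not share a single pattern. Of these 12 genes, 6 were highest in cMoP, 3 in classical and 3 in nonclassical monocytes. Some of the cMoP peaks were near ties, with classical monocyte minus cMoP at -0.01 for Arsb, -0.04 for Naglu and -0.07 for Neu1. Gla, alpha-galactosidase A, had values of 8.54 in MDP, 8.37 in CDP, 9.02 in cMoP, 9.10 in classical monocytes and 7.19 in nonclassical monocytes, where it was lowest. Glb1, beta-galactosidase, was also lowest in nonclassical monocytes, at 7.43, and lay between 8.49 and 9.0 on the other arrays. Ids, which removes sulfate from iduronic acid, had 7.17 in MDP, 7.61 in CDP, 6.97 in cMoP, 8.47 in classical monocytes and 8.79 in nonclassical monocytes. Man2b1, alpha-mannosidase, had 10.28 to 10.51 on the progenitor arrays, 11.30 in classical and 11.72 in nonclassical monocytes.

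Gaa, the enzyme that degrades glycogen in the lysosome, had values of 8.11 in MDP, 7.43 in CDP, 8.20 in cMoP, 7.17 in classical monocytes and 7.20 in nonclassical monocytes. Gaa was lower on both monocyte arrays than on any progenitor array. Arsb, arylsulfatase B, had 9.04 in MDP, 9.79 in CDP, 10.12 in cMoP, 10.11 in classical monocytes and 9.05 in nonclassical monocytes. Its second probe set gave the same low at both ends, 8.40 in MDP and 8.33 in nonclassical monocytes. That probe set was highest in classical monocytes, at 9.77, with 9.71 in cMoP. Of the others, Fuca1 spanned 9.0 to 10.11, Sgsh 7.23 to 8.44, Hexa 9.85 to 10.86, Neu1 6.47 to 7.28, Gusb 9.0 to 9.79 and Naglu 6.26 to 6.79. Among these 6, Fuca1 and Sgsh were above all progenitors in both monocytes.

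Among the membrane proteins, Cd68 and Cd63 had opposite orders over cMoP and the monocytes. Cd68, macrosialin, a heavily glycosylated lysosomal protein of macrophages and monocytes, had values of 9.13 in MDP, 9.92 in CDP, 9.42 in cMoP, 11.75 in classical monocytes and 12.40 in nonclassical monocytes. Cd63, a tetraspanin of late endosomes, lysosomes and secretory granules, had values of 8.58 in MDP, 6.96 in CDP, 10.10 in cMoP, 6.54 in classical monocytes and 5.74 in nonclassical monocytes. Cd68 was highest where Cd63 was lowest.

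The mean of a list of primary granule genes ranked the arrays in the same order as Cd63, but not every gene of the list did. The 5 measured genes of that list, Elane, Mpo, Prtn3, Ctsg and Ms4a3, had a mean log2 value of 11.78 in MDP, 10.41 in CDP, 12.83 in cMoP, 10.07 in classical monocytes and 6.11 in nonclassical monocytes. All 5 were at or above the floor on each array but that of nonclassical monocytes, where 2 were. Elane had 8.99 in CDP and 10.19 in classical monocytes, and Ms4a3 7.05 and 7.41, the reverse of Cd63 on those arrays. Mpo, Prtn3 and Ctsg ranked the arrays as Cd63 did. The list's part in the values of Cd63 was not tested. Of 8 basophil and mast cell genes, 2 or 3 lay at or above the floor on each array. Mcpt8, a basophil protease, was above it on all, with 8.95 in MDP, 7.99 in CDP, 8.70 in cMoP, 6.71 in classical monocytes and 7.5 in nonclassical monocytes. Prss34, another protease of that kind, reached 7.86 in nonclassical monocytes and was at 6.52 or less elsewhere, and Gata2 lay between 6.16 and 6.69. Fcer1a and Cma1 lay at 4.69 or less on every array. The part of this list in the values of Cd63 was not tested either.

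Lamp1 and Lamp2, the most abundant proteins of the lysosomal membrane, followed each other closely. Lamp1 had values of 10.51 in MDP, 10.68 in CDP, 11.17 in cMoP, 11.82 in classical monocytes and 11.29 in nonclassical monocytes. For Lamp2 they were 10.28, 10.19, 10.73, 11.34 and 10.98 in the same order of populations. Scarb2, the receptor that carries glucocerebrosidase to lysosomes, spanned 8.49 in MDP to 9.59 in classical monocytes, and Mcoln1, the TRPML1 calcium channel, 7.95 in MDP to 8.67 in nonclassical monocytes. Among the other soluble proteins, Grn, the gene of progranulin, had 10.38 in MDP, 11.48 in CDP, 11.16 in cMoP, 12.32 in classical monocytes and 11.26 in nonclassical monocytes. Tpp1, a peptidase, stayed between 8.54 in CDP and 9.43 in nonclassical monocytes.

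**Figure D2:**
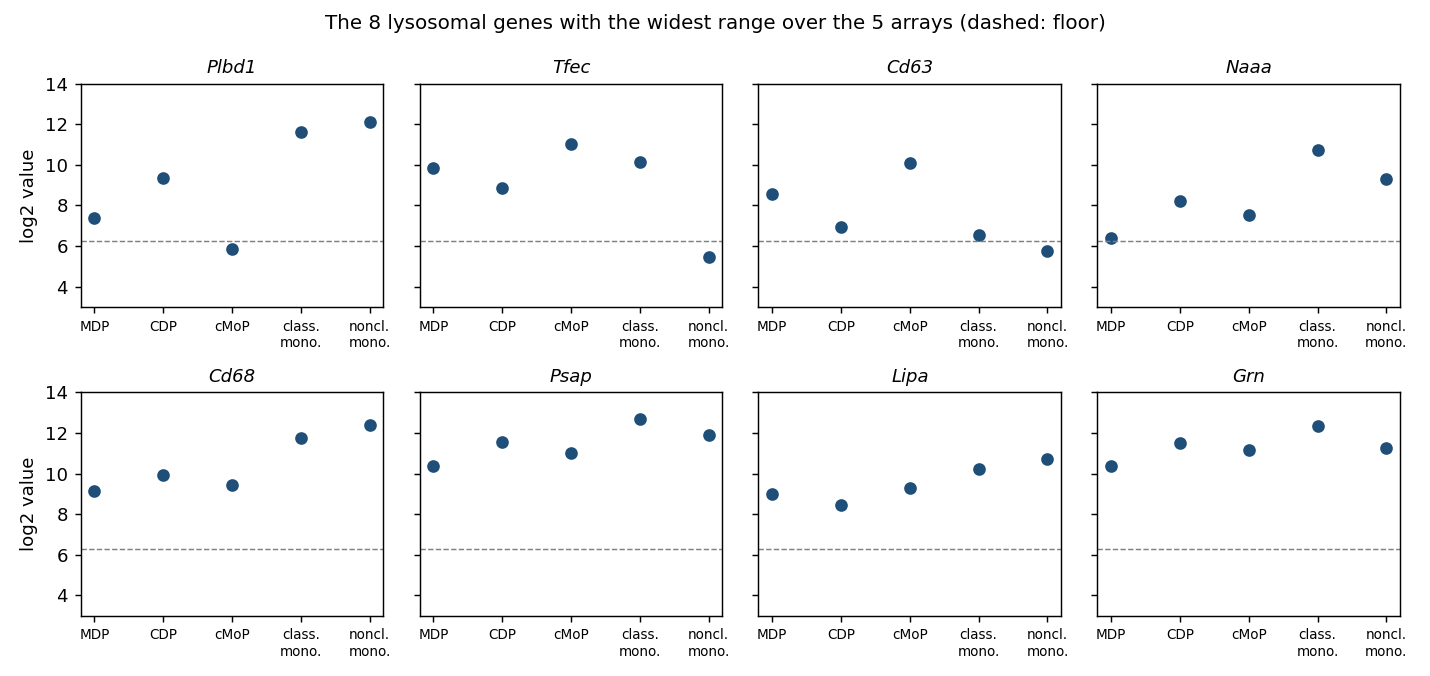
Each panel shows 1 of the 8 members with the widest range, with log2 value on the vertical axis, 1 point per array, and the floor of 6.27 as a dashed line. Plbd1 lies under the floor only in cMoP, Tfec and Cd63 only in nonclassical monocytes, and Cd68 and Lipa have their highest values in nonclassical monocytes.

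The 2 transcription factors of the list did not share an order over the arrays, and stood at opposite ends of their ranges in nonclassical monocytes. Tfeb, a regulator of lysosome biogenesis, had values of 6.86 in MDP, 7.36 in CDP, 7.14 in cMoP, 8.03 in classical monocytes and 8.46 in nonclassical monocytes. Tfec, a family member described mainly in macrophages of mice, had values of 9.83 in MDP, 8.85 in CDP, 11.03 in cMoP, 10.13 in classical monocytes and 5.48 in nonclassical monocytes. Tfeb was highest on the array where Tfec was under the floor. Of their relatives, Tfe3 had 7.04 in MDP, 7.26 in CDP, 7.44 in cMoP, 8.38 in classical monocytes and 8.05 in nonclassical monocytes, while Mitf lay near or under the floor, between 5.45 in nonclassical and 6.59 in classical monocytes.

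Of the 21 proton pump genes 16 reached the floor on every array and 5 on none. Atp6v0a4, Atp6v0d2, Atp6v1b1, Atp6v1c2 and Atp6v1g3, isoforms known mainly from kidney, osteoclasts or other specialised cells, were under the floor on all arrays. Atp6v0e2, Atp6v1e2 and Atp6v1g2 were above it but spanned no more than 0.35 log2 units. Among the subunit genes of the form found in most cells Atp6v1b2 spanned 1.85 and Atp6v1a 1.47 log2 units. Atp6v0c, which encodes the proteolipid ring, was not analysed here.

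In the V1 sector, Atp6v1b2, the B subunit of the catalytic ring in most cells, had values of 9.19 in MDP, 9.28 in CDP, 10.16 in cMoP, 11.04 in classical monocytes and 10.15 in nonclassical monocytes. Its partner in that ring, Atp6v1a, had values of 8.32 in MDP, 8.55 in CDP, 9.25 in cMoP, 9.80 in classical monocytes and 8.86 in nonclassical monocytes. Atp6v1e1, a stalk subunit, had 9.07 in MDP, 8.95 in CDP, 10.08 in cMoP, 10.33 in classical monocytes and 9.83 in nonclassical monocytes. These 3 subunits thus shared a peak in the classical monocyte and low values in MDP and CDP. Atp6v1g1, another stalk subunit, was at 10.42 to 10.52 on the progenitor arrays, 10.89 in classical and 9.92 in nonclassical monocytes, and its second probe set gave 9.88 in nonclassical and 10.76 in classical monocytes. Atp6v1c1 spanned 8.39 to 9.29, Atp6v1d 9.27 to 9.94, Atp6v1f 9.98 to 10.68 and Atp6v1h 7.80 to 8.30.

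Of the 6 V0 sector genes at the floor, 2 were highest in nonclassical monocytes, 3 in classical monocytes and 1, Atp6v0e2, was tied. Atp6v0b, a proteolipid subunit, had values of 9.82 in MDP, 10.12 in CDP, 10.28 in cMoP, 10.69 in classical monocytes and 10.86 in nonclassical monocytes. Atp6v0e held the same order of arrays, with 10.84 in MDP and 11.68 in nonclassical monocytes. Atp6v0d1, which links the sectors, had 8.22 in MDP, 8.32 in CDP, 8.72 in cMoP, 9.29 in classical monocytes and 8.54 in nonclassical monocytes. For Atp6v0a2 the 2 probe sets disagreed, with nonclassical minus classical monocyte at -0.32 in the one used and 0.58 in the other. The one used was highest in classical monocytes, while the other was highest in nonclassical monocytes, at 8.45, with 7.87 in classical monocytes. Atp6v0a1 stayed between 7.95 and 8.42.

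**Figure D3:**
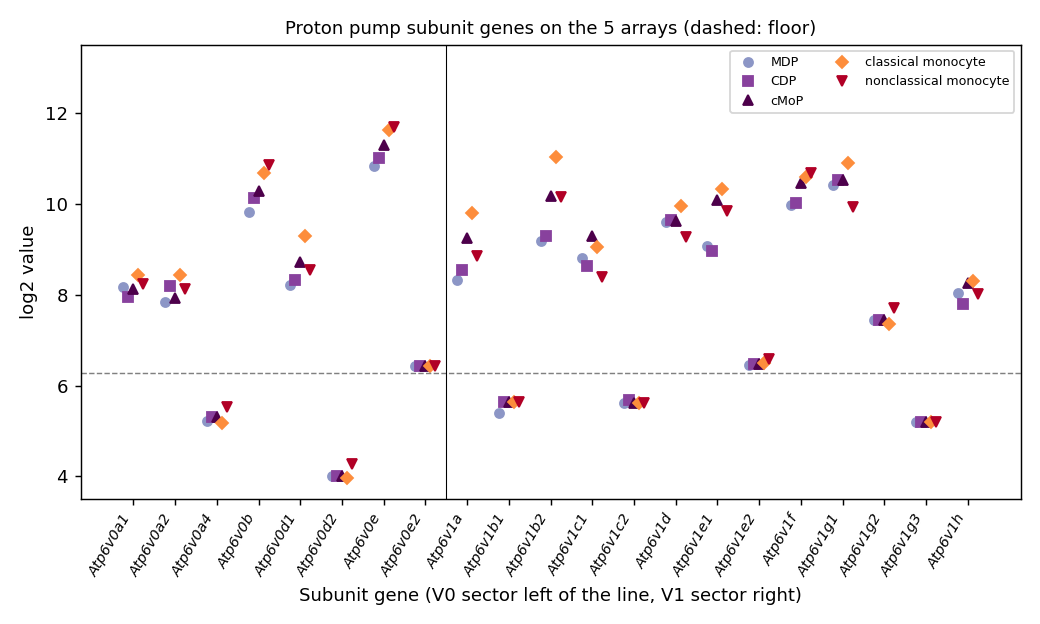
Log2 value (vertical axis) of each of the 21 proton pump genes (horizontal axis, V0 sector left and V1 sector right of the line), with 1 symbol per array and the floor of 6.27 as a dashed line. The orange diamonds of the classical monocyte top 9 genes at the floor, and 5 genes lie under the line on every array.

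In the dendritic branch, CDP had higher values than MDP for Plbd1 (1.97), Naaa (1.83), Psap (1.21) and Grn (1.10). These 4 were the members counted as higher, of 49 past the floor, where 1.15% of all genes were. Cd63 alone was lower, by a difference of -1.62 (3.07-fold), where 1.06% of all genes were. The next members in size were Cd68 (0.79), Arsb (0.76) and Scarb2 (0.57) on one side and Tfec (-0.98), Gaa (-0.67) and Lipa (-0.54) on the other. The median difference was 0.08 over all 54 members and 0.00 over all named genes. The 21 proton pump genes lay between -0.23 and 0.36. Of 6 conventional and 5 plasmacytoid dendritic cell genes, 4 each were past the floor, 3 and 2 were higher in CDP, and 0 were lower. The conventional list had a mean log2 value of 6.62 in MDP and 7.81 in CDP, and the plasmacytoid list 7.15 and 8.08. The part of these lists in the members' values was not tested. At 0.5 log2 units 8 members were higher, beside 5.58% of all genes, and 4 lower, beside 9.01%.

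In the monocyte branch, cMoP had higher values than MDP for Cd63 (1.52), Tfec (1.20), Naaa (1.14), Arsb (1.09) and Atp6v1e1 (1.01). These are 5 of 49 members past the floor, beside 1.44% of all genes. Plbd1 alone was lower (-1.50, at least 2.14-fold), beside 1.4% of all genes. Quantile normalization left Atp6v1e1 short of the threshold, at 0.97, and a floor at the upper quartile removed the calls of Naaa and Plbd1. Next in size were Atp6v1b2 (0.97), Atp6v1a (0.93) and Neu1 (0.80), and on the lower side Mcoln2 (-0.69), Ids (-0.20) and Atp6v0a1 (-0.05). With its cMoP value under the floor, Mcoln2 was lower by at least 1.15-fold. The differences were small but mostly of one sign, with 44 of 54 members above 0, 4 below and 6 equal, and a median of 0.30 over the members where that of all named genes was 0.00. Counting only those past the floor, 85.7% of the members and 49.8% of all genes were above 0. At 0.5 log2 units 13 members were higher, beside 7.78% of all genes, and 2 lower, beside 7.41%.

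The committed progenitors differed most in 4 members. Cd63 was 8.81-fold higher in cMoP than in CDP (3.14), Tfec 4.52-fold (2.18) and Atp6v1e1 2.18-fold (1.13), which makes 3 of 48 members past the floor beside 3.23% of all genes. With quantile normalization Atp6v1e1 was just short of the threshold, at 0.998. Plbd1 was lower (-3.46), beside 2.2% of all genes. Among the members that missed the threshold, Atp6v1b2 (0.88), Lipa (0.84) and Gusb (0.78) led on the higher side and Naaa (-0.68), Ids (-0.64) and Psap (-0.55) on the lower side. At 0.5 log2 units 15 members were higher, beside 15.3% of all genes, and 4 lower, beside 8.86%. The median was 0.16 over the members and 0.00 over all named genes. These 3 progenitor comparisons share arrays in pairs, so their values are not independent of each other.

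Classical monocytes had higher values than cMoP for Plbd1 (5.75, at least 40.6-fold), Naaa (3.22, 9.29-fold), Cd68 (2.33, 5.01-fold), Psap (1.64), Ids (1.51), Grn (1.16) and Man2b1 (1.01). These are 7 of 48 members past the floor, beside 7.01% of all genes, and centring the arrays left Man2b1 short, at 0.96. Cd63 (-3.56, 11.8-fold) and Gaa (-1.03) were lower, 2 members beside 4.4% of all genes. Asah1 (0.99), Lipa (0.91) and Tfeb (0.89) came next on the higher side and Tfec (-0.90), Glb1 (-0.50) and Gusb (-0.45) on the lower. The lipid enzymes and activators had a median of 0.91, the membrane proteins 0.63, the glycosidases and sulfatases 0.04 and the proton pump 0.13. The pump median is over all 21 genes, of which 16 were past the floor. The 5 pump genes under the floor on every array lay between -0.13 and 0 and are part of that median. Over all 54 members the median was 0.29, and over all named genes 0.00. At 0.5 log2 units 21 members were higher, beside 16% of all genes, and 4 lower, beside 15.2%.

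Nonclassical monocytes had lower values than classical monocytes for Tfec (-4.65, at least 14.5-fold), Gla (-1.91, 3.75-fold), Naaa (-1.45), Grn, Arsb and Glb1 (each -1.06) and Hexa (-1.01). These are 7 of 48 members past the floor, beside 9.82% of all genes, and 0 members were higher, beside 3.55% of all genes. With quantile normalization the count of lower members was 3, since Grn (-0.81), Arsb (-0.86), Glb1 (-0.92) and Hexa (-0.80) fell short of the threshold. Those nearest to the threshold were Atp6v1g1 (-0.97), Npc2 (-0.96) and Atp6v1a (-0.94) on the lower side. On the higher side Cd68 (0.65), Lipa (0.52) and Plbd1 (0.51) came nearest. The median was -0.19 over the members and 0.01 over all named genes, and over genes past the floor it was -0.09. At 0.5 log2 units 3 members were higher, beside 10.1% of all genes, and 17 lower, beside 25.6%. Those 17 held 5 of the 13 V1 genes and 1 of the 8 V0 genes. The V1 median was -0.28 and the V0 median 0.03. Both medians include genes under the floor on every array, since 10 of 13 V1 genes and 6 of 8 V0 genes were past it. Those under it were Atp6v0a4 (0.35) and Atp6v0d2 (0.31) in V0, and Atp6v1b1, Atp6v1c2 and Atp6v1g3 (each 0) in V1.

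**Figure D4:**
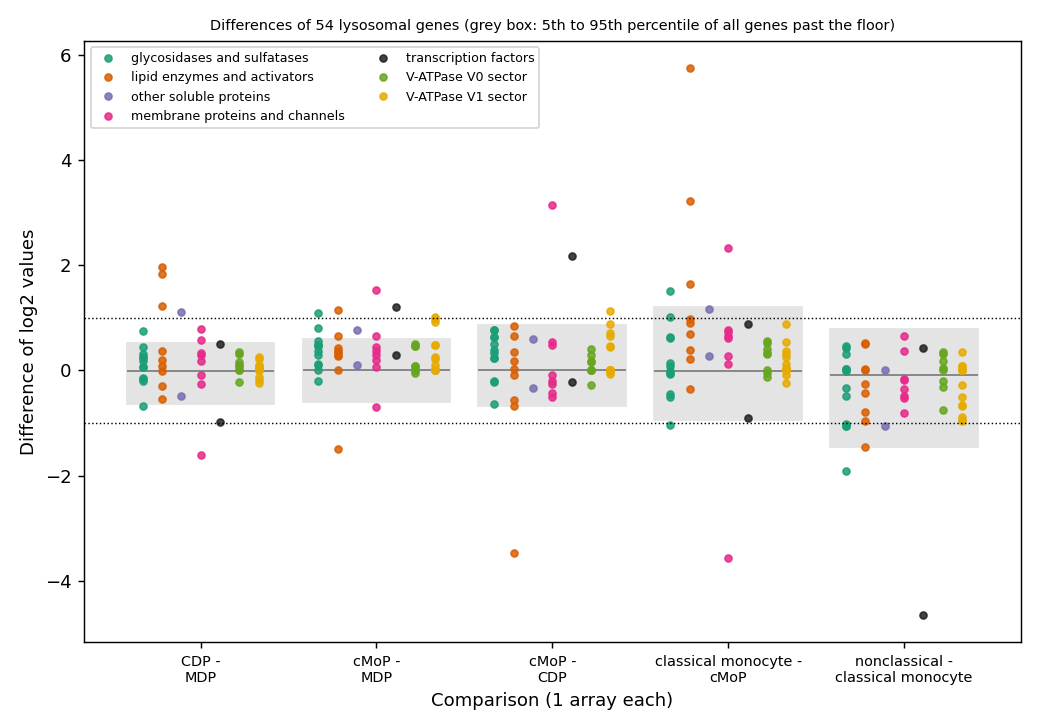
Each point is the difference of log2 values of 1 member (vertical axis) in 1 comparison (horizontal axis), coloured by role, with dotted lines at the threshold and a grey box from the 5th to the 95th percentile of all genes past the floor with their median. Plbd1 reaches 5.75 in classical monocytes against cMoP and Tfec -4.65 in nonclassical against classical monocytes, while the pump genes stay between -0.97 and 1.13.

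A further list of 53 lysosome genes gave 46 that were measured and are not members, of which 42 to 44 were past the floor in each comparison. Of 42, 1 was higher in CDP than in MDP, beside 1.15% of all genes, and 1 higher in cMoP than in MDP, beside 1.44%, with medians of 0.05 and 0.32. These were Slc15a3, a lysosomal transporter of histidine and peptides (at least 1.81-fold), and Lyz2, lysozyme (1.39). Higher in cMoP than in CDP were 4 of 42, beside 3.23% of all genes, with a median of 0.18. They were the galactocerebrosidase gene Galc (at least 2.18-fold), the sorting receptor Sort1 (1.27), Lamtor2 (1.19) and the acid phosphatase Acp2 (1.15). In classical monocytes against cMoP 3 of 43 were higher, beside 7.01% of all genes, and 1 lower, beside 4.4%, with a median of 0.23. The higher ones were Slc15a3 (3.01), Hgsnat (1.66), an acetyltransferase of heparan sulfate breakdown, and Lyz2 (1.54), and the lower one was Laptm4b, at 5.77 in classical monocytes and 6.80 in cMoP, at least 1.44-fold. Slc15a3 had values of 5.89 in MDP, 7.12 in CDP, 6.41 in cMoP, 9.41 in classical monocytes and 8.96 in nonclassical monocytes.

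In nonclassical against classical monocytes 4 of 44 genes of the further list were lower, beside 9.82% of all genes, and 1 was higher, beside 3.55%. The lower ones were the sulfatase Galns (-1.88), Lamtor4 (-1.33) and Lamtor2 (-1.04), subunits of the Ragulator complex that anchors nutrient signalling on the lysosome, and Mitf. With its nonclassical value under the floor, Mitf was lower by at least 1.25-fold. Acp5, the tartrate-resistant acid phosphatase, was higher (2.08), with values of 8.84 in nonclassical and 6.76 in classical monocytes. The median of that list was -0.08. In classical monocytes against cMoP and in nonclassical against classical monocytes these counts came to shares at or below those of all genes. For 3 of 44 genes of that list, Hgsnat, Lyz2 and Slc15a3, both monocyte arrays lay above all 3 progenitor arrays by 1 log2 unit or more. This was so for 2.38% of all genes. In the other direction 0 genes of the list were so placed, beside 0.787% of all genes.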

How the data were processed

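RNA of 5 sorted populations was labelled with a biotin kit and measured on 1 array each, per the labels' protocols. The deposited table has 35556 probe sets, each with a log2 value per array. Its values span 1.59 to 14.24, from which the log2 scale was inferred. The base and the steps from scanner to table (background correction, normalization, summary of probes) are not stated in those protocols. Each fold would change with another base. Array medians lay between 6.02 and 6.16. Of the probe sets, 21789 carry 1 gene symbol in the platform annotation, 1621 several and 12146 are not listed. They gave 19938 named genes, of which 999 had several probe sets. Populations were taken from the sample titles.

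Differences, counts and medians were computed with Python 3.11.15, pandas 2.3.3 and numpy 2.4.6, and the code was tested on simulated data. With 1 array per population there is no test, and precision is limited by that number. Folds written as "at least" use the floor in place of a lower value that lay under it. Alternatives were quantile normalization, centring each array on its median, averaging all probe sets of a gene, a floor at the upper quartile, no floor, and a threshold of 0.5 log2 units. Named in each comparison were all members past the threshold and the next 3 in each direction. Members, lists and order patterns were chosen with earlier results of these data known. Sequences and gene starts are RefSeq's (GRCm38.p6).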

Additional observations from a re-analysis of the deposited data

How the results depend on the processing

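No test was possible with 1 array per population, and no paired analysis was possible because no population has a replicate. Centring shifted all genes by 0.11 in both comparisons of cMoP with another progenitor, which put the members' median at 0.41 against MDP and at 0.27 against CDP. With quantile normalization 3 members in place of 7 were lower in nonclassical than in classical monocytes, since Glb1 (-0.92), Hexa (-0.80), Arsb (-0.86) and Grn (-0.81) fell short, and Atp6v1e1 fell short in cMoP against MDP (0.97) and CDP (0.998). After centring Man2b1 fell short in classical monocytes against cMoP (0.96). Centring also took Atp6v1a (1.04) and Atp6v1b2 (1.08) past the threshold in cMoP against MDP, and Npc2 (-1.05), Atp6v1a (-1.03) and Atp6v1g1 (-1.06) in nonclassical against classical monocytes. A floor at the upper quartile removed Naaa and Plbd1 from the comparison of cMoP with MDP, which left 0 members lower there.

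A threshold of 0.5 log2 units, added after the values were seen, gave 8 higher and 4 lower members in CDP against MDP, 13 and 2 in cMoP against MDP, 15 and 4 in cMoP against CDP, 21 and 4 in classical monocytes against cMoP, 3 and 17 in nonclassical against classical monocytes, and 9 members higher in both monocytes than in all progenitors. The number of members in the order MDP, cMoP, classical monocyte lay between 30 and 33 in all settings but the changed threshold, which does not bear on it. The number highest in the classical monocyte lay between 19 and 25. Of 64 recomputed differences of single members past the threshold, 0 changed sign and 39 moved by less than 0.1.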
